A study of Homo sapiens with 9 samples.

Results

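The genes described here encode the proteins of the mitochondrial ribosome, and were taken as the rows of the deposited table whose gene symbol begins with MRPL or MRPS followed by a number. Of 11350 genes in the table, 80 matched. They comprise 78 protein genes and 2 transcripts that carry such a name but do not encode the protein, the antisense transcript MRPL20-AS1 and the pseudogene MRPL45P2. The 78 protein genes are called the members below: 51 encode proteins of the large subunit, 26 encode proteins of the small subunit, and MRPS36 was counted with neither subunit, since its product is now regarded as a subunit of the 2-oxoglutarate dehydrogenase complex. All 78 were tested, because no gene of the deposited table was removed here. Its smallest gene total was 41 counts, so that genes with fewer counts were already absent from it.

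RNA-seq was performed in 3 lines of untreated HCT116 cells, a human colorectal carcinoma cell line, with 3 libraries of each line. HUWE1 is a ubiquitin ligase of the HECT family, whose catalytic cysteine accepts ubiquitin before it is passed to the substrate. HUWE1-P cells are the parental cells, in HUWE1-WT cells the catalytic cysteine of endogenous HUWE1 was exchanged for cysteine, and in HUWE1-CS cells it was exchanged for serine. Both edited lines were grown from single cells after selection and carry a blasticidin resistance gene behind the edited HUWE1, which the parental cells lack. The comparison of HUWE1-CS with HUWE1-P cells therefore contains both the exchange to serine and the editing procedure, and the comparison of HUWE1-WT with HUWE1-P cells contains the editing procedure only. Whether the replicates of an edited line are 1 clone or several is not given in the sources used here, so that p-values measure the spread between these libraries, and a difference between clones cannot be told apart from the exchanged residue. That spread was estimated largely from all genes together. A standard error, interval or FDR of edgeR is therefore not a measure of the gene's own spread between replicates.

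Mitochondria have their own ribosome, which translates only the few proteins encoded by mitochondrial DNA, all of them subunits of the respiratory chain and of ATP synthase. Its ribosomal RNAs are made inside the organelle, whereas its proteins are encoded in the nucleus, made by cytosolic ribosomes and imported. Some of these proteins descend from proteins of the bacterial ribosome and others are found only in mitochondrial ribosomes. Loss of single members impairs assembly of a subunit and respiration, and inherited variants of several of them cause deficiencies of oxidative phosphorylation.

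Total counts lay between 1610984 and 2060349 per library, at which 3 counts, taken as the floor, correspond to 1.45 to 1.86 CPM, which are counts relative to the library size after TMM scaling. All 5 epithelial markers were present in every library (EPCAM 345 to 470 CPM, KRT8 1600 to 2220, KRT18 590 to 829, KRT19 840 to 1030 and CDH1 57.8 to 103). Of 4 fibroblast markers 1 was in the table (COL1A1, 8.71 to 25.6 CPM), as was 1 of 3 leukocyte markers (CD68, 6.39 to 14.5 CPM). The transcript of HUWE1 itself amounted to 561, 545 and 522 CPM in HUWE1-P cells, 498, 453 and 455 CPM in HUWE1-WT cells and 345, 323 and 339 CPM in HUWE1-CS cells. The libraries of the 3 lines did not overlap, and HUWE1 was lower in HUWE1-CS cells than in HUWE1-P cells (log2 fold change -0.69, SE 0.07, edgeR FDR 1.1e-15). Counts per gene do not show which codon is present.

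Promoters of the members are shown because the members belong to 1 complex but lie at separate loci: the 78 genes lie on 21 chromosomes, with at most 8 on any of them. RefSeq promoters (GRCh38.p14, 250 bases before to 50 bases after the annotated start) were matched to 70 of the 78 members. They were searched on both strands for 4 motifs named for nuclear genes of mitochondrial proteins or for MYC: the core of the NRF1 motif (CGCANGCG), a motif of the ETS family (CCGGAAG), a YY1 motif (AAGATGGC) and the E-box CACGTG. The following sequences are those of the 3 members with the smallest p-values among members that were higher in HUWE1-CS than in HUWE1-P cells and held at least 1 motif, among chromosomes from which sequence is shown here. Each runs 5′ to 3′ along the gene, all 3 genes lie on the minus strand, and the windows end 30 bases after the start. Capitals mark matches, which are the ETS motif on the other strand (CTTCCGG) except for 1 NRF1 core in the MRPS33 promoter (CGCAGGCG).
MRPS16, chr10:73252615-73252894: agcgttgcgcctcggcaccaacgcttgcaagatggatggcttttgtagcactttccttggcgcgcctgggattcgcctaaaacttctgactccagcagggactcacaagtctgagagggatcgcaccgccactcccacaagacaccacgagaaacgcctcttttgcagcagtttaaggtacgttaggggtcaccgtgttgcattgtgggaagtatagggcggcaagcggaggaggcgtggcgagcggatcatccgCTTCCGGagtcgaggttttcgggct
MRPS33, chr7:141014923-141015202: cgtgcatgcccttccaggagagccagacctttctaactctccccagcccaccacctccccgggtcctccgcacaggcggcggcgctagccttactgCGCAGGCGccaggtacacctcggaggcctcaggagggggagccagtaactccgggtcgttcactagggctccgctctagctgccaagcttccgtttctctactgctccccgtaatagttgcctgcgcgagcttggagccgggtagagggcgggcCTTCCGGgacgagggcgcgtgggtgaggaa
MRPS34, chr16:1773105-1773384: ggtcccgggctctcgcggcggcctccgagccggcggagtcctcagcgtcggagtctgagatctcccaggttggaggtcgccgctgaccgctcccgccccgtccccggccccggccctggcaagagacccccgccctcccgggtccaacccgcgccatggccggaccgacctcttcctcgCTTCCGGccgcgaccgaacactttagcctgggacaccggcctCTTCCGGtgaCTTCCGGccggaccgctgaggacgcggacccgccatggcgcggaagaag

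The ETS motif stood in 29 of the 70 member promoters (41.4%), beside 20.9% of the 9041 promoters of genes in the counts table and 10.7% of all 27305 promoters. The YY1 motif was present in 20 member promoters (28.6%), beside 5.99% and 3.03%. The NRF1 core was found in 13 of them (18.6%), beside 20.4% and 10.6%, and the E-box in 7 (10.0%), beside 10.6% and 7.43%. Among the 9 members that changed in HUWE1-CS cells relative to HUWE1-P cells, 4 held the ETS motif, 1 the YY1 motif (MRPS24), 1 the NRF1 core (MRPS33) and 0 the E-box. Among the 61 members with a promoter that were not called, 25 held the ETS motif and 19 the YY1 motif. No test was made between these shares, and a match is a stretch of letters, not a bound site.

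The members were expressed at middle levels. Their mean over the 9 libraries lay between 19.7 CPM for MRPS14 and 283 CPM for MRPL12, with a median of 70.6 CPM. Single libraries held between 25 and 596 counts of a member, so that no member was near the floor. The annotation places exons of 22 members over exons of another gene of the table, 18 of them on the opposite strand, and 36 members have a pseudogene of their name, so that their counts may include reads of other transcripts. The median coefficient of variation within a line was 9.82%, beside 10.4% for the 7656 genes within the same range of CPM. Per kilobase of transcript, levels lay between 7.27 and 280 CPM with a median of 55.8. The lowest value belonged to a member with a mean of 113 CPM whose annotated transcript is 15557 bases long. MRPL12, a protein of the stalk of the large subunit that also binds the mitochondrial RNA polymerase, was the highest on that scale too. Together the members took 0.614 to 0.632% of all counts in HUWE1-P libraries, 0.620 to 0.659% in HUWE1-WT libraries and 0.651 to 0.688% in HUWE1-CS libraries. The lowest HUWE1-CS library thus lay below the highest HUWE1-WT library.

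In HUWE1-CS cells compared with HUWE1-P cells, 9 of 78 members changed at a false discovery rate (FDR) of at most 0.01 by edgeR's quasi-likelihood test, adjusted over all genes. The share was 11.5%, beside 17.0% of all genes tested. Of the 9 members, 8 were higher (10.3% of the members, beside 8.46% of all genes) and 1 was lower (1.28%, beside 8.58%). The members' log2 fold changes had a median of 0.13, with quartiles of 0.02 and 0.22 and a range from -0.55 to 0.66, whereas the median of all genes was -0.01. Estimates were above 0 for 62 of 78 members (79.5%), beside 49.1% of all genes. For 58 members the 95% interval of the log2 fold change lay wholly within 0.5 on either side of 0. An unadjusted p under 0.05 was reached by 21 members (26.9%), beside 36.1% of all genes. The estimates of the members were thus mostly small and positive, and the share of calls among them did not exceed that among all genes. In bulk RNA, a change within cells and a change in the share of cells that express a gene cannot be told apart.

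**Figure D1:**
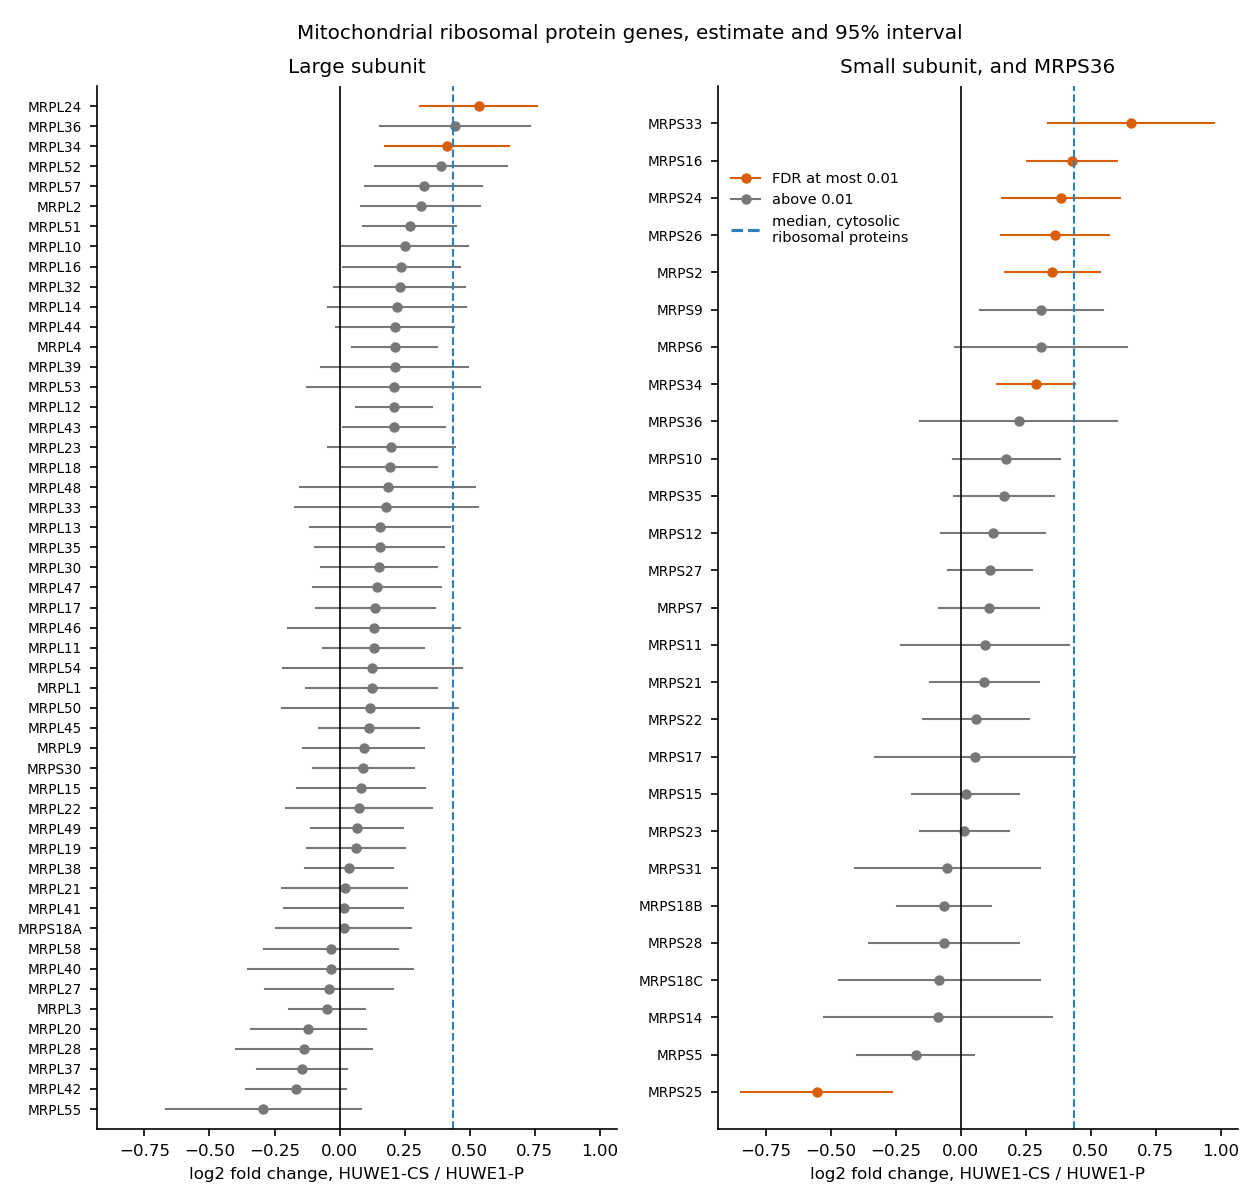
Log2 fold change of each member in HUWE1-CS against HUWE1-P cells (horizontal axis), large subunit on the left, small subunit and MRPS36 on the right. Points are estimates from 3 libraries a line, bars are 95% intervals, orange marks an FDR of at most 0.01 (9 of 78), the solid line is 0, and the dashed line is the median of the cytosolic ribosomal protein genes (0.44). Most points lie to the right of 0 and to the left of the dashed line.

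Of the 26 members of the small subunit 7 were called (6 higher and 1 lower, median log2 fold change 0.10), and of the 51 members of the large subunit 2 were called (both higher, median 0.14). These are 26.9% and 3.92% of the subunits' members, beside 17.0% of all genes. Medians of the subunits were close to each other, and the difference in the number of calls was not tested. By origin, 5 of 46 members with a bacterial homologue (10.9%) and 4 of 31 mitochondrion-specific members (12.9%) were called, both below the 17.0% of all genes. Against HUWE1-WT cells the 2 subunits did not differ in this way. There, 1 of 26 small subunit members (3.85%) and 2 of 51 large subunit members (3.92%) were called, beside 15.5% of all genes.

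MRPS16 had the smallest p-value. It is a small subunit protein with a bacterial homologue, and its variants were among the earliest mitoribosomal defects described in patients. Its transcript measured 120, 131 and 114 CPM in HUWE1-P cells, 111, 112 and 114 CPM in HUWE1-WT cells and 167, 162 and 163 CPM in HUWE1-CS cells. The 3 HUWE1-CS libraries lay above all 6 others. MRPS16 rose 1.35-fold over HUWE1-P cells (log2 fold change 0.43, SE 0.09, edgeR FDR 4.9e-05) and 1.46-fold over HUWE1-WT cells (0.54, SE 0.09, FDR 6.1e-07). The annotation lists 3 pseudogenes that carry its name, and how reads shared with them were counted is not given in the sources used here. Exons of DNAJC9-AS1, a transcript on the opposite strand that is absent from the deposited table, cover 14.1% of the exon bases of MRPS16. How much this overlap adds to its value was not tested.

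MRPS33, a mitochondrion-specific protein of the small subunit, had the largest estimate among the members. Its libraries gave 26.7, 32.0 and 27.5 CPM in HUWE1-P cells, 40.6, 40.9 and 32.0 CPM in HUWE1-WT cells and 52.8, 47.6 and 35.4 CPM in HUWE1-CS cells. HUWE1-CS libraries lay above all HUWE1-P libraries but overlapped with those of HUWE1-WT cells. Its log2 fold change was 0.66 against HUWE1-P cells (SE 0.16, FDR 9.0e-04) and 0.26 against HUWE1-WT cells (SE 0.15, FDR 0.23). Without HUWE1-CS replicate 1 the first became 0.53 (FDR 0.023), and with DESeq2 the call was lost as well (0.66, FDR 0.015). MRPS33 also has 3 pseudogenes of its name.

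MRPS2, whose bacterial counterpart is a late-binding protein of the small subunit, measured 98.7, 122 and 121 CPM in HUWE1-P cells, 121, 140 and 136 CPM in HUWE1-WT cells and 143, 147 and 150 CPM in HUWE1-CS cells. All HUWE1-CS libraries lay above the 6 others, although the highest HUWE1-WT library came within 3 CPM of them. MRPS2 rose against HUWE1-P cells (log2 fold change 0.35, SE 0.09, FDR 0.0017), and the estimate against HUWE1-WT cells was 0.15 (SE 0.09, FDR 0.24). Without HUWE1-P replicate 1, which was the lowest library, the former was 0.27 (FDR 0.044). The call of MRPS2 was also lost with DESeq2 (FDR 0.0155) and after removal of a trend with transcript length (0.25, FDR 0.0245).

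MRPS34 and MRPS26, both mitochondrion-specific proteins of the small subunit, were higher as well. MRPS34 gave 211, 209 and 184 CPM in HUWE1-P cells, 202.8, 232 and 211 CPM in HUWE1-WT cells and 228, 261 and 246 CPM in HUWE1-CS cells (log2 fold change against HUWE1-P cells 0.29, SE 0.08, FDR 0.0019). The call was lost without HUWE1-CS replicate 2 (0.25, FDR 0.018) or without HUWE1-P replicate 3 (0.22, FDR 0.052), with DESeq2 (FDR 0.016), and after removal of a trend with transcript length, which brought MRPS34 to 0.13 (FDR 0.15). Its lowest HUWE1-CS library lay below the highest HUWE1-WT library. MRPS26 gave 86.9, 88.1 and 72.3 CPM in HUWE1-P cells, 79.4, 89.4 and 95.9 CPM in HUWE1-WT cells and 102, 112 and 102 CPM in HUWE1-CS cells (0.36, SE 0.11, FDR 0.0052), and its HUWE1-CS libraries lay above all others. The call of MRPS26 was lost without HUWE1-CS replicate 1 (0.39, FDR 0.011), HUWE1-CS replicate 2 (0.33, FDR 0.032) or HUWE1-P replicate 3 (0.27, FDR 0.095), with DESeq2 (FDR 0.042), and after length removal (0.21, FDR 0.12). Against HUWE1-WT cells neither passed the threshold (MRPS34 0.19, FDR 0.057, and MRPS26 0.26, FDR 0.060).

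MRPS24, which binds near the mRNA entry site of the small subunit, measured 73.9, 80.3 and 63.6 CPM in HUWE1-P cells, 89.8, 90.0 and 83.2 CPM in HUWE1-WT cells and 72.4, 104 and 106 CPM in HUWE1-CS cells. One HUWE1-CS library lay within the range of HUWE1-P cells and the other two above every control. Relative to HUWE1-P cells the log2 fold change was 0.39 (SE 0.11, FDR 0.0068), and against HUWE1-WT cells it was 0.11 (SE 0.11, FDR 0.54). It did not pass without HUWE1-P replicate 1 (0.40, FDR 0.019), HUWE1-P replicate 3 (0.29, FDR 0.099), HUWE1-CS replicate 2 (0.31, FDR 0.069) or HUWE1-CS replicate 3 (0.31, FDR 0.069), nor with DESeq2 (FDR 0.060), limma-voom (FDR 0.013) or total counts (FDR 0.012). Removal of a trend with transcript length brought MRPS24 to 0.16 (FDR 0.32).

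MRPS25, a mitochondrion-specific protein of the small subunit, was the single member that fell. It amounted to 57.7, 55.0 and 49.1 CPM in HUWE1-P cells, 40.0, 39.8 and 52.9 CPM in HUWE1-WT cells and 33.8, 42.5 and 33.1 CPM in HUWE1-CS cells. HUWE1-CS libraries lay below all HUWE1-P libraries and overlapped with HUWE1-WT libraries. The log2 fold change was -0.55 against HUWE1-P cells (SE 0.15, FDR 0.0021) and -0.27 against HUWE1-WT cells (SE 0.15, FDR 0.20), and the call was lost without HUWE1-P replicate 1 (-0.51, FDR 0.017), HUWE1-CS replicate 1 (-0.50, FDR 0.018) or HUWE1-CS replicate 3 (-0.48, FDR 0.022) and with DESeq2 (FDR 0.0285). In the annotation 39.1% of its exon bases overlap exons of NR2C2 on the opposite strand, the library kit did not keep the strand, and NR2C2 was itself lower in HUWE1-CS cells at an FDR of 0.020 (log2 fold change -0.39 against HUWE1-P cells). How much the overlap adds to the value of MRPS25 was not tested.

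In the large subunit, MRPL24, a protein with a bacterial homologue that starts assembly of the subunit in bacteria, gave 65.8, 59.5 and 71.3 CPM in HUWE1-P cells, 56.2, 64.4 and 69.8 CPM in HUWE1-WT cells and 84.9, 108 and 92.3 CPM in HUWE1-CS cells. The 3 HUWE1-CS libraries lay above all others. MRPL24 rose over HUWE1-P cells (log2 fold change 0.53, SE 0.11, FDR 1.1e-04) and over HUWE1-WT cells (0.59, SE 0.11, FDR 3.2e-05). MRPL34, a small protein with a bacterial homologue, gave 59.0, 58.9 and 63.6 CPM in HUWE1-P cells, 61.4, 82.3 and 64.5 CPM in HUWE1-WT cells and 74.8, 94.1 and 73.2 CPM in HUWE1-CS cells. Its HUWE1-CS and HUWE1-WT libraries overlapped. The log2 fold change of MRPL34 was 0.41 against HUWE1-P cells (SE 0.12, FDR 0.0059) and 0.21 against HUWE1-WT cells (FDR 0.19), and the first did not pass without any 1 of the HUWE1-P replicates (0.39 to 0.45, FDR 0.011 to 0.027) or without HUWE1-CS replicate 2 (0.29, FDR 0.11), nor with DESeq2 (FDR 0.048), total counts (FDR 0.0104) or length removal (0.21, FDR 0.20). For MRPL24 length removal gave 0.35 against HUWE1-P cells (FDR 0.0107). Exons of 2 of the called members overlap exons of genes on the other strand that had low counts, MRPS34 with EME2 (31.2% of its exon bases, EME2 at a mean of 7.49 CPM) and MRPL34 with ABHD8 (14.6%, 6.97 CPM).

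**Figure D2:**
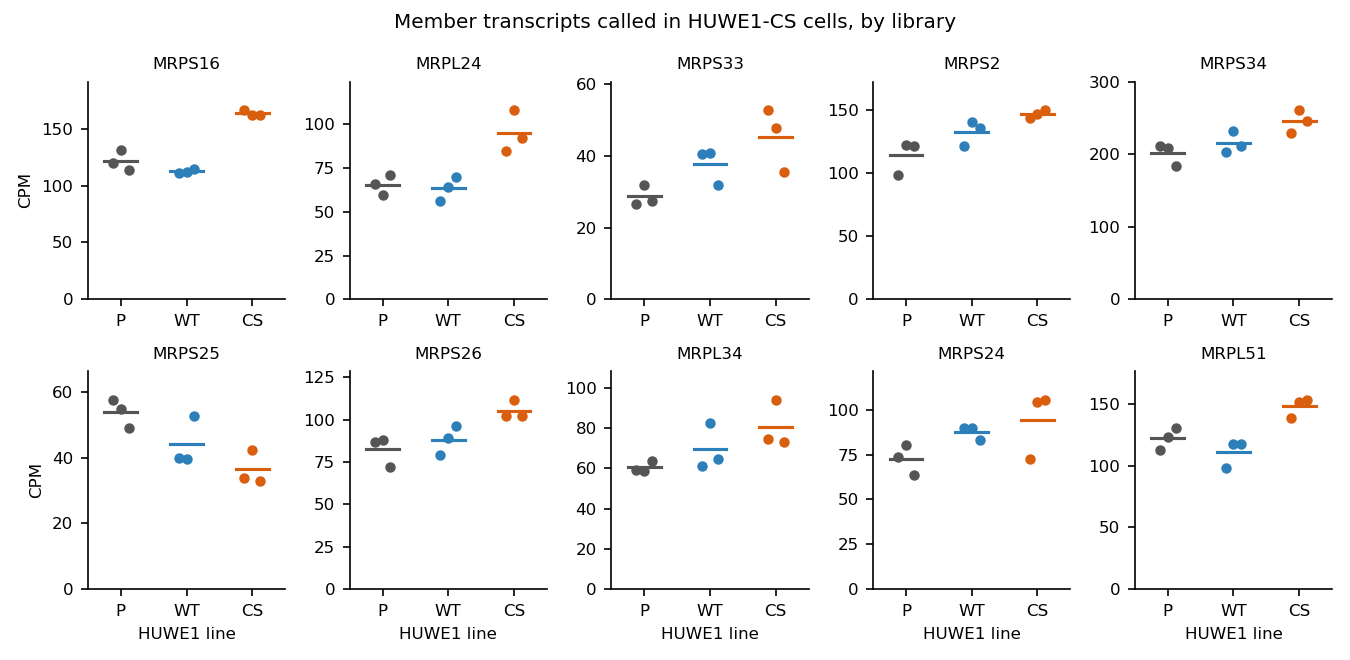
TMM-scaled CPM of the 10 members called in HUWE1-CS cells against HUWE1-P or HUWE1-WT cells, by line (horizontal axis; P, WT and CS). Points are libraries, 3 a line, bars are means, and each vertical axis starts at 0. MRPS16, MRPL24, MRPL51, MRPS2 and MRPS26 have all 3 HUWE1-CS libraries above the 6 others.

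Compared with HUWE1-WT cells, 3 of 78 members changed in HUWE1-CS cells, all of them higher at this threshold. The share was 3.85%, beside 15.5% of all genes called and 7.42% called higher. The 3 members were MRPS16, MRPL24 and MRPL51, the first 2 of which were also called against HUWE1-P cells. MRPL51, a mitochondrion-specific protein of the large subunit, amounted to 113, 123 and 130 CPM in HUWE1-P cells, 97.9, 117 and 118 CPM in HUWE1-WT cells and 139, 151 and 153 CPM in HUWE1-CS cells, the latter above all others. Its log2 fold change was 0.41 against HUWE1-WT cells (SE 0.09, FDR 2.6e-04) and 0.27 against HUWE1-P cells (SE 0.09, FDR 0.018). After removal of a trend with transcript length, the estimate of MRPL51 against HUWE1-WT cells was 0.26 and no longer passed (FDR 0.0185). It shares 27.6% of its exon bases with NCAPD2 on the opposite strand, whose log2 fold change against HUWE1-WT cells was -0.08 (FDR 0.39), and 1 pseudogene carries its name.

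The median log2 fold change of the members was 0.07 against HUWE1-WT cells, with 60 of 78 estimates above 0, and 60 intervals lay within 0.5 of 0. Both comparisons use the same HUWE1-CS libraries, so that they are not independent. Across all 9 libraries, the 3 HUWE1-CS libraries lay above the 6 others for 9 members (11.5%, beside 12.9% of all genes) and below them for 1 member, MRPL37 (1.28%, beside 13.4%). These 9 members were MRPL10, MRPL24, MRPL39, MRPL51, MRPL52, MRPL57, MRPS2, MRPS16 and MRPS26, of which 4 were called against HUWE1-P cells. Those given here by name alone were chosen by this criterion after their values were seen.

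In HUWE1-WT cells compared with HUWE1-P cells 0 of 78 members were called by edgeR, beside 0.0617% of all genes. DESeq2 and limma-voom also called 0 members, beside 0% and 0.0617% of all genes. An unadjusted p under 0.05 was reached by 5 members (6.41%), beside 5.54% of all genes. These were 5 of 26 small subunit members (19.2%) and 0 of 51 large subunit members. The median log2 fold change was 0.02, the range was -0.28 to 0.40, and 65 of 78 intervals lay within 0.5 of 0. Several members that passed in HUWE1-CS cells relative to HUWE1-P cells had estimates of the same sign here, with FDRs far from the threshold: 0.40 for MRPS33 (FDR 0.80), 0.28 for MRPS24 (FDR 0.78), 0.21 for MRPS2 (FDR 0.83) and -0.28 for MRPS25 (FDR 0.89). These members were chosen by their difference from the HUWE1-P libraries, which this comparison also uses, so that the choice alone favours the same sign. For MRPS16 the estimate was -0.11 and for MRPL24 it was -0.05 (FDR 0.96 and 0.99).

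The 3 paralogs of the MRPS18 family differ in place: the products of MRPS18B and MRPS18C sit in the small subunit and that of MRPS18A in the large subunit. MRPS18B was the most abundant at 89.5 CPM per kilobase, followed by MRPS18A at 47.6 and MRPS18C at 14.5. MRPS18A gave 59.6, 56.1 and 51.1 CPM in HUWE1-P cells, 52.7, 62.2 and 48.8 CPM in HUWE1-WT cells and 58.7, 49.3 and 59.8 CPM in HUWE1-CS cells. MRPS18B gave 140, 118 and 127 CPM, 119, 132 and 122 CPM, and 124, 124 and 119 CPM in the same order of lines. MRPS18C gave 21.7, 20.2 and 27.9 CPM, 21.4, 23.4 and 20.9 CPM, and 20.2, 22.1 and 24.4 CPM. The libraries of the 3 lines overlapped for each paralog. Exons of ABRAXAS1 on the opposite strand cover 40.2% of the exon bases of MRPS18C. Estimates against HUWE1-P cells were 0.02 for MRPS18A (95% interval -0.24 to 0.27), -0.06 for MRPS18B (-0.25 to 0.12) and -0.08 for MRPS18C (-0.47 to 0.30).

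Members with roles apart from the core of the ribosome did not pass the threshold in HUWE1-CS cells. MRPL58 is a peptidyl-tRNA hydrolase that is built into the large subunit and had a mean of 62.6 ± 3.4 CPM in HUWE1-P cells, 61.1 ± 16.1 in HUWE1-WT cells and 61.3 ± 3.9 in HUWE1-CS cells (SD, n = 3). MRPL44, which has the fold of an RNase III, had means of 68.5 ± 3.5, 78.6 ± 9.9 and 79.4 ± 5.5 CPM in the same order. MRPS30, named for the small subunit but placed in the large one, had means of 107 ± 6, 103 ± 10 and 114 ± 13 CPM. For MRPL58 and MRPS30 the libraries of the 3 lines overlapped. For MRPL44 all HUWE1-CS libraries (73.2 to 83.7 CPM) lay above all HUWE1-P libraries (65.1 to 72.0 CPM) and overlapped with HUWE1-WT libraries, and the difference from HUWE1-P cells did not pass (log2 fold change 0.21, SE 0.12, FDR 0.17). The most abundant member, MRPL12, had means of 266 ± 24, 276 ± 26 and 306 ± 30 CPM (log2 fold change against HUWE1-P cells 0.21, SE 0.07, FDR 0.026), and the least abundant, MRPS14, had means of 18.3 ± 2.7, 23.5 ± 2.1 and 17.2 ± 2.8 CPM (-0.09, SE 0.22, FDR 0.82). MRPS36 had means of 22.7 ± 2.9, 20.9 ± 3.3 and 26.3 ± 3.3 CPM (0.22, SE 0.19, FDR 0.42).

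Cytosolic ribosomal proteins and subunits of respiratory complex I are the most similar other groups, the former by function and the latter as nuclear-encoded mitochondrial proteins. In HUWE1-CS against HUWE1-P cells, 77 of 77 cytosolic ribosomal protein genes were higher, with a median log2 fold change of 0.44 and a range of 0.24 to 0.69. For complex I, 14 of 39 genes were higher (35.9%, beside 8.46% of all genes) and 0 lower, with a median of 0.31. The median of the members was 0.13. For 48 of 78 members the 95% interval ended below the cytosolic median, for 30 it held that median, and for 0 it lay above it. Against HUWE1-WT cells these numbers were 57, 21 and 0. Standard errors were larger for members (median 0.117) than for the cytosolic genes (0.0603), and no test was made of the difference between the groups.

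Values of the groups were also compared by library. The median deviation of the members from their mean log2 CPM was -0.016, -0.056 and -0.070 in HUWE1-P libraries, -0.064, 0.048 and -0.049 in HUWE1-WT libraries and 0.041, 0.124 and 0.074 in HUWE1-CS libraries. The lowest HUWE1-CS value lay below the highest HUWE1-WT value, so that the lines overlapped. For the cytosolic ribosomal proteins the HUWE1-CS libraries lay at 0.212 to 0.364 and the 6 others at -0.231 to -0.048, without overlap. Within HUWE1-CS cells, replicate 2 was the highest and replicate 1 the lowest in both groups.

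**Figure D3:**
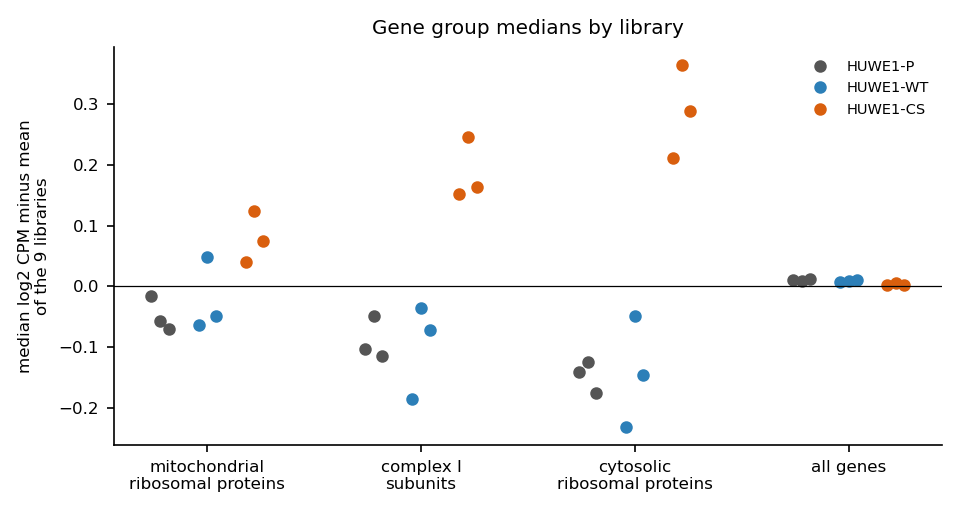
Median over the genes of a group of the log2 CPM in a library minus that gene's mean over the 9 libraries (vertical axis), for the members, complex I subunits, cytosolic ribosomal proteins and all genes. Each point is a library, 3 a line. For the members the HUWE1-CS points (0.041 to 0.124) overlap with the highest HUWE1-WT point (0.048), whereas for the cytosolic ribosomal proteins they lie apart.

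Canonical transcripts of the members are short, with a median length of 1242 bases against 3484 bases for genes in the same range of CPM, and fold changes in HUWE1-CS cells varied with transcript length across all genes. The 696 genes under 1 kilobase had a median log2 fold change of 0.21 against HUWE1-P cells, and the 26 members of that length had a median of 0.19. Between 1 and 2 kilobases the median was 0.10 for 1973 genes and 0.13 for 34 members. Between 2 and 4 kilobases it was 0.01 for 3979 genes and 0.11 for 12 members, and over 4 kilobases it was -0.09 for 4411 genes and 0.04 for 6 members. When a trend with length was removed from each library, the median of the members was 0.04 against HUWE1-P cells and -0.0005 against HUWE1-WT cells, and 3 of 78 members (3.85%) were called in each comparison, beside 16.6% of all genes against HUWE1-P cells and 15.6% against HUWE1-WT cells. The members called against HUWE1-P cells after this step were MRPS16 and MRPS33, both higher, and MRPS25, which was lower. Against HUWE1-WT cells they were MRPS16 and MRPL24, both higher, and MRPL37, which was lower (-0.29, FDR 0.0047) and is named after its value was seen. After the same step 64 of 77 cytosolic ribosomal protein genes were still called. Whether the trend with length comes from the cells or from the preparation of the libraries was not tested.

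Other genes of mitochondrial translation, and genes of mitochondrial transcription and DNA maintenance, were taken from lists of 73 genes in all. In HUWE1-CS against HUWE1-P cells 5 of 73 were higher (6.85%, beside 8.46% of all genes) and 0 lower, and against HUWE1-WT cells 5 were higher (6.85%, beside 7.42%) and 1 lower. The shares called in either direction, 6.85% and 8.22%, lay below the 17.0% and 15.5% of all genes. Of 5 mitoribosomal proteins with other names, AURKAIP1, a mitochondrion-specific protein of the small subunit, rose. Its libraries gave 166, 170 and 156 CPM in HUWE1-P cells, 154, 171 and 164 CPM in HUWE1-WT cells and 195, 223 and 206 CPM in HUWE1-CS cells, the last 3 above all others (log2 fold change 0.35, SE 0.08, FDR 3.2e-04 against HUWE1-P cells). DAP3, a GTP-binding protein of the small subunit, fell against HUWE1-WT cells (-0.29, SE 0.09, FDR 0.0085) and had an estimate of -0.11 against HUWE1-P cells (FDR 0.40). GADD45GIP1, PTCD3 and CHCHD1 were not called, with estimates of 0.32, 0.16 and -0.01 against HUWE1-P cells (FDR 0.012, 0.21 and 0.97).

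Assembly factors of the mitoribosome were not called against HUWE1-P cells (0 of 30 by edgeR, beside 17.0% of all genes). An unadjusted p under 0.05 was reached by 6 of them (20%, beside 36.1% of all genes), and their median log2 fold change was 0.06. Against HUWE1-WT cells 1 of the 30 assembly factors was called (3.33%, beside 15.5% of all genes), the RNA-binding protein C1QBP (0.24, SE 0.06, FDR 0.0015). Of 20 factors of translation and RNA stability 3 were higher against HUWE1-P cells (15%, beside 8.46% of all genes). TUFM, the elongation factor that carries aminoacyl-tRNA to the mitochondrial ribosome, gave 567, 568 and 544 CPM in HUWE1-P cells, 574, 587 and 598 CPM in HUWE1-WT cells and 740, 780 and 740 CPM in HUWE1-CS cells. HUWE1-CS libraries lay far above the 6 others, and TUFM rose against HUWE1-P cells (0.43, SE 0.06, FDR 6.2e-09) and HUWE1-WT cells (0.36, SE 0.06, FDR 7.7e-07). SLIRP and LRPPRC, which form a complex that stabilizes mitochondrial mRNAs, rose against HUWE1-P cells (0.45, FDR 0.0025, and 0.22, FDR 0.0052) but did not pass against HUWE1-WT cells (FDR 0.17 and 0.021).

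Among 16 genes of mitochondrial transcription and DNA maintenance, HSD17B10, a subunit of the mitochondrial RNase P, rose against HUWE1-P cells (0.32, SE 0.10, FDR 0.0094) and HUWE1-WT cells (0.37, FDR 0.0033). HSD17B10 lies near the edited HUWE1 on the X chromosome (bases 53458206 to 53461317, and HUWE1 from 53559057 to 53713697, GRCh37). Whether this position bears on its value was not tested. POLRMT, the mitochondrial RNA polymerase, had an estimate of 0.11 (FDR 0.29), and POLG2, a subunit of the DNA polymerase, one of -0.63 (FDR 0.021). The ribosomal RNAs of the organelle, which poly(A) libraries sample only in part, are counted in the same libraries. RNR1 of the small subunit measured 1237, 1210 and 1210 CPM in HUWE1-P cells, 1060, 831 and 1187 CPM in HUWE1-WT cells and 1277, 1349 and 1063 CPM in HUWE1-CS cells, and RNR2 of the large subunit 2256, 2494 and 2251 CPM, 2022, 1364 and 2298 CPM, and 2458, 2294 and 1857 CPM. The libraries of HUWE1-CS and HUWE1-WT cells overlapped for both RNAs, although RNR1 was called between them (0.26, FDR 0.0014) and RNR2 was not (0.22, FDR 0.020). In HUWE1-CS against HUWE1-P cells the estimates were 0.01 and -0.08 (FDR 0.91 and 0.44), and in HUWE1-WT against HUWE1-P cells they were -0.25 and -0.30 (FDR 0.15 and 0.063). Both RNAs thus had their lowest mean in HUWE1-WT cells, where replicate 2 was the lowest library of all 9.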

How the data were processed

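Poly(A) RNA of 9 libraries was prepared with a kit that does not keep the strand, and single-end reads were obtained. Adapter trimming by the authors used Skewer and alignment to hg19 used STAR 2.5.4 (versions per the submitters' processing notes, which also name bcl2fastq 2.20 and edgeR 3.26.8). The values deposited by the authors are raw counts per gene. The counting tool, its annotation and its use of strand are not given in the sources used here. The authors also deposited tables of their own comparisons, which hold log2 fold changes, mean log2 CPM, F statistics, p-values and FDRs and were not used.

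Lines were taken from the sample labels. Counts were analysed with R 4.3.3 and edgeR 4.0.16 (TMM, glmQLFit and glmQLFTest with legacy = TRUE) over all 9 libraries without a filter, with the line as the only term, Benjamini-Hochberg adjustment over 11350 genes and a threshold of 0.01. The table holds 147 genes without a symbol, and the smallest gene total was 41 counts. The biological coefficient of variation was 4.77%. The edgeR fit drew the spread of each gene toward a trend over all genes, with a weight of 89.5 prior degrees of freedom. The chi-square per degree of freedom between replicates of a line was 1.157 to 1.653, so that no library of a line repeated the counts of another. These values cannot show whether the replicates were separate cultures. Intervals are 95% intervals of the fitted log2 fold change, and errors are SD of 3 libraries. Transcript lengths and overlaps came from GENCODE on GRCh37, the authors' build, and promoters from RefSeq on GRCh38.p14, of which the window was read directly and no coordinate was converted. Procedures were tested on simulated data.

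The members and gene lists were chosen with earlier results of these data known. Named members are, among called members, those with the 6 smallest p-values per direction and subunit, those called in a single comparison, the most and least abundant members, the MRPS18 family and members with special roles, and in each list the 3 genes with the smallest p-values per direction were eligible. Alternatives were DESeq2 1.42.0, limma-voom (limma 3.58.1), the newer edgeR estimator, a robust fit, fits of the 2 lines compared, RLE scaling, scaling to total counts, a filter at 10 counts per library, the replicate number as a block, removal of a trend with transcript length (with and without the block), omission of each library and a threshold of 0.05.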

Additional observations from a re-analysis of the deposited data

How the results depend on the processing

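In HUWE1-CS against HUWE1-P cells, 9 members were called. The number was 2 with DESeq2 (beside 9.59% of all genes), 3 with the trend with transcript length removed (beside 16.6%), 4 with that removal and the replicate block (beside 16.7%), and 17 at an FDR of 0.05 (beside 26.4%). It lay between 5 and 9 when 1 library was omitted, beside 12.9 to 17.8% of all genes. It was 5 without HUWE1-P replicate 1, HUWE1-P replicate 3 or HUWE1-CS replicate 2, beside 13.2%, 12.9% and 13.2%. The same shares stand beside the subunit, list, complex I and cytosolic counts that follow, with 17.1% for total counts. The 2 large subunit members became 1 with DESeq2, 1 with total counts, 1 with the block and length removal, 0 with length removal alone, and 9 at an FDR of 0.05 (1 to 4 without 1 library). The 7 small subunit members became 1, 3 and 3 with DESeq2, the block with length removal, and length removal (4 to 7 without 1 library). Of the 5 list genes 3 were called with DESeq2, total counts or length removal and 11 at an FDR of 0.05 (2 to 6). Of the 14 complex I genes 7, 3 and 3 were called with DESeq2, the block with length removal, and length removal (7 to 16), and the 77 cytosolic genes stayed between 75 and 77 without 1 library. Against HUWE1-WT cells 3 members were called, also without any 1 library (beside 12.1 to 15.6% of all genes). At an FDR of 0.05 they were 7 (6 higher and 1 lower, beside 24.4% of all genes). With length removal, also with the block, 2 of the 3 were higher and 1 was lower, beside 15.6% of all genes. All members were uncalled in HUWE1-WT against HUWE1-P cells under every alternative, beside at most 0.167% of all genes.

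The median of the members against HUWE1-P cells was 0.1283 and became 0.0352 with length removal, with or without the block (0.1071 to 0.1775 without 1 library). Against HUWE1-WT cells it moved from 0.0701 to -0.0005 (0.0563 to 0.1417, the highest without HUWE1-WT replicate 2), and in HUWE1-WT against HUWE1-P cells omission of a library gave 0.0064 to 0.0617. Omission of a library removes 1 point that must not overlap. It gave 9 to 18 members with the HUWE1-CS libraries left above all control libraries left, and 1 to 4 below. Total counts gave 2 below. The share over all genes was not computed for these settings, so that these numbers cannot be set beside the shares given for all 9 libraries. MRPS16 passed in both HUWE1-CS comparisons under every alternative, and MRPL24 did so except after length removal (FDR 0.0107 against HUWE1-P cells).

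Whether same-numbered replicates were prepared as sets is not given in the sources used here. Their deviations correlated at -0.0195 to 0.0579 over 9 pairs, beside -0.0653 to 0.0333 over 18 other pairs. These ranges overlap, and correlations this weak at this depth cannot show whether the replicates were paired. With the replicate block alone 10 members were called against HUWE1-P cells and 3 against HUWE1-WT cells, beside 17.8% and 16.2% of all genes.

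Estimates near 0 changed sign without being called. Against HUWE1-P cells MRPS18A became -0.0079 with total counts, -0.1147 with length removal and -0.1169 with the block as well. Against HUWE1-WT cells and in the same order, MRPL44 became -0.0112, -0.0385 and -0.0382, MRPL58 -0.0228, -0.1468 and -0.1455, and MRPS18C -0.0092, -0.0491 and -0.0504. With length removal, and with the block as well, MRPS18A became -0.0723 and -0.0728 and MRPS24 -0.1007 and -0.1014. The cause of these changes was not tested. Omission of a library also turned the sign against HUWE1-P cells of MRPL58 (-0.0748 to 0.017), MRPS14 (-0.2143 to 0.034), MRPS18A (-0.0477 to 0.1085) and MRPS18C (-0.1781 to 0.0871), and against HUWE1-WT cells of MRPL44 (-0.0639 to 0.1126), MRPL58 (-0.1929 to 0.1496), MRPS18A (-0.042 to 0.145), MRPS18B (-0.0578 to 0.0302) and MRPS18C (-0.0457 to 0.081).

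The median standard error of a member was 0.117 on the log2 scale at this depth.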
